A study of Mus musculus with 21 samples.

Results

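Hlf, Mecom, Meis1, Hoxa9, Gata2, Runx1, Tal1, Gfi1 and Gfi1b are 9 transcription factors that work in blood stem cells. They were taken by gene symbol from a count table of 47729 genes, in which each symbol had a single row, and all 9 had enough counts to be tested. RNA was measured in 21 SMART-seq2 libraries, 3 in each of 7 groups, of mouse hematopoietic stem cells (HSCs). The cells were sorted from bone marrow as CD48- CD150+ cells within the lineage-negative, Sca-1+, Kit+ (LSK) fraction. In the treatment experiment, the groups were bortezomib-treated and DMSO-treated knockout-labelled mice (Mx1-Cre;Atg5fl/fl, titled Atg5-/-), and bortezomib-treated and DMSO-treated wild-type (WT) mice. Bortezomib, a proteasome inhibitor, was given at 10 mg/kg, and controls of both genotypes received 10% DMSO. Both were injected retro-orbitally at 48 h and again at 24 h ahead of the analysis. Mx1-Cre is driven by an interferon-inducible promoter, and how or when it was induced is not given in the sources used here. In the reporter experiment, untreated RFP-EGFP-LC3 mice gave RFP single positive, RFP GFP double positive and double negative HSCs. In this tandem reporter of LC3, acid in lysosomes quenches EGFP and spares RFP. Ages are not given, and the labels do not say that the libraries of a group came from separate mice, so p-values measure the spread between these samples, which may be technical.

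The 9 factors form a network that sets the identity of HSCs and restrains their differentiation. HLF and MECOM (EVI1) are used to recognise HSCs and are needed to keep them, HOXA9 and MEIS1 bind DNA together and drive self-renewal, and RUNX1, GATA2 and TAL1 share many enhancers in stem and progenitor cells. GFI1 and GFI1B are related repressors that recruit the LSD1-CoREST complex through a SNAG domain, and GFI1 is known to hold HSCs back from excessive division.

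Libraries held 15005500 to 31481691 counts over 16095 to 18899 detected genes, so that 3 counts corresponded to 0.0953 to 0.200 CPM (read counts scaled to a common library total). Atg5 was examined first, as the targeted gene, and its counts were not lower in knockout-labelled libraries. Its level was 91.5 to 139 CPM with bortezomib and 105 to 111 CPM with DMSO in knockout-labelled HSCs, against 70.0 to 131 CPM and 39.0 to 74.1 CPM in WT HSCs, and 82.7 to 137 CPM in the reporter libraries. A count over the whole gene does not isolate a deleted exon and so checks nothing about the label. All 10 HSC markers examined, among them Procr, Slamf1, Kit and Ly6a, were detected above 1 CPM on average in each group. Libraries of a group differed in Xist as a share of Xist plus Ddx3y counts: 0 to 100% in knockout-labelled bortezomib, at most 0.987% in knockout-labelled DMSO, 31.8% to 90.3% in WT bortezomib, 59.98% to 99.2% in WT DMSO, and 0 to 99.9% in the reporter libraries. On the third principal component, library 3 of WT bortezomib, WT DMSO and knockout-labelled bortezomib stood apart from the rest of their groups, as did double positive 1, while double negative 1 did so on the first and double positive 2 on the second.

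The factors differ in abundance and in gene structure. Per kilobase of exon sequence (GENCODE M21, build GRCm38) and averaged over 21 libraries, Gata2 was most abundant at 59.7 CPM per kb, followed by Hlf at 46.9, Meis1 at 45.3 and Gfi1b at 39.1 CPM per kb. Hoxa9 (13.0), Mecom (10.7), Runx1 (10.0), Tal1 (8.44) and Gfi1 (7.73 CPM per kb) were lower. Among the genes that passed the count filter over all 21 libraries, Gata2 thus stood at percentile 93.1 and Gfi1 at percentile 63.9. Hlf (ENSMUSG00000003949.16) spans 90336536 to 90390895 and Meis1 (ENSMUSG00000020160.18) 18879817 to 19018985, both on the minus strand of chromosome 11. Mecom (ENSMUSG00000027684.16) lies at 29951296 to 30548008 on chromosome 3, Runx1 (ENSMUSG00000022952.16) at 92601466 to 92826149 on chromosome 16, and Gfi1 (ENSMUSG00000029275.17) at 107716657 to 107726036 on chromosome 5, all on the minus strand. Hoxa9 (52223100 to 52231089, minus strand) and Gata2 (88193891 to 88207032, plus strand) share chromosome 6, Gfi1b lies at 28609450 to 28621982 on the minus strand of chromosome 2, and Tal1 at 115056426 to 115071755 on the plus strand of chromosome 4. Overlapping genes on the opposite strand cover 8.51% of the exon bases of Meis1 (Gm16140), 3.17% of those of Gfi1 (A430072P03Rik), 0.88% of those of Runx1 and 0.65% of those of Mecom. On the same strand, Gm37818 covers 9.77% of the exon bases of Meis1 and Mir196b 1.52% of those of Hoxa9, and reads there are ambiguous whatever the strand setting. Whether the counting used strand is not given in the sources used here, so reads from the opposite-strand stretches cannot be assigned to a strand.

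RefSeq lists 14 start sites for the 9 factors (build GRCm38.p6). The 250 bases upstream of each were searched on both strands for motifs of some of the factors' own families and for an ETS motif. The GATA motif GATAAG occurred in 1 of the 14 windows, against 6.55% of 32851 mouse promoters, and the GFI1 core AAATCA in 2, against 12.4%. The RUNX motif TGTGGT, the MEIS motif TGACAG and the ETS motif GGAAGT each occurred in 1 (background 14%, 15.9% and 19.7%), and the E-box CAGCTG (13%) and the HLF motif TTACNTAA (2.06%) in none. The upstream sequences of Gfi1b, Hlf and Runx1 are shown because Gfi1b holds both the GATA and the GFI1 letters in a single window, and because Hlf fell with bortezomib in both genotypes whereas Runx1 had a bortezomib effect that differed between them. They run 5′ to 3′ on the minus strand at chr2:28621983-28622232, chr11:90390918-90391167 and chr16:92697330-92697579 (the downstream start of Runx1), with GATAAG and AAATCA in capitals and no base within a GENCODE exon.
Gfi1b: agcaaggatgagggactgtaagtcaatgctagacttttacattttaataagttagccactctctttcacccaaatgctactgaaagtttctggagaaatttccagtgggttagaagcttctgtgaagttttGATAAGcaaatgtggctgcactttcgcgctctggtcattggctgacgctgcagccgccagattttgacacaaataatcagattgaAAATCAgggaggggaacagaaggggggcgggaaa
Hlf: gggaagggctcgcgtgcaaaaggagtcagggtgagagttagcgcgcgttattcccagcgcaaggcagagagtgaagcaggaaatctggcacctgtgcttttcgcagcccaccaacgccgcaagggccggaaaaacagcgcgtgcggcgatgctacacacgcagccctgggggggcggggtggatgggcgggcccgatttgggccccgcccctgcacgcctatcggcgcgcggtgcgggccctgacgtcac
Runx1: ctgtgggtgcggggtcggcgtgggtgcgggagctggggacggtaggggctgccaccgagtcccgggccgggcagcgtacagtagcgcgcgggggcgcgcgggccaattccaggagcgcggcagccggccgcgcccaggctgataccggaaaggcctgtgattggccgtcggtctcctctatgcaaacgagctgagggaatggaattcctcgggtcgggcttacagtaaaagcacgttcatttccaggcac
The Hlf and Runx1 windows hold none of the letters searched, which says only that these letters are not in these windows.

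**Figure D1:**
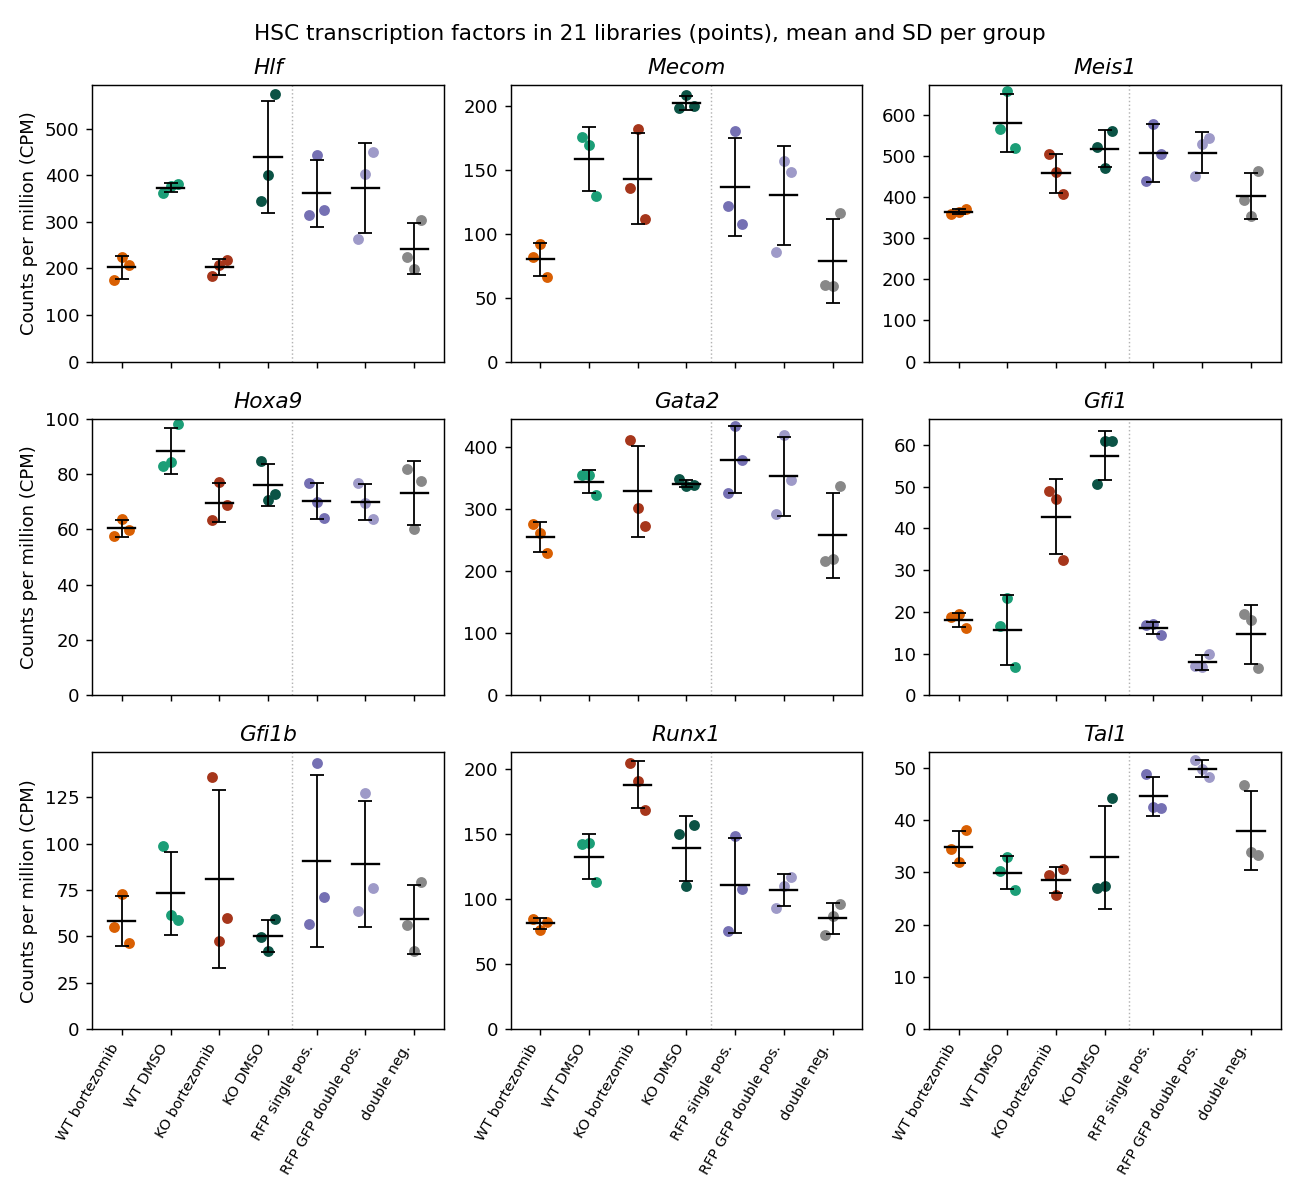
Levels of the 9 factors in CPM in 21 libraries (points; bars show the mean and SD of 3 libraries), with treatment groups left of the dotted line and reporter groups right of it. Gfi1 was at 32.4 to 60.9 CPM in the 6 knockout-labelled libraries and at 6.57 to 23.3 CPM in the other 15, and Hlf was at 176 to 225 CPM in all 6 bortezomib libraries.

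Across the 7 groups, which come from separate experiments, Gfi1 varied most: its highest group mean was 7.26 times its lowest. The highest was 57.4 CPM in knockout-labelled DMSO, and the lowest was 7.91 CPM in RFP GFP double positive HSCs of the other experiment. Within the treatment experiment its lowest mean was 15.5 CPM, in WT DMSO. The ratio of highest to lowest group mean was 2.57 for Mecom, 2.32 for Runx1 and 2.17 for Hlf, and 1.46 to 1.80 for Hoxa9, Gata2, Meis1, Tal1 and Gfi1b. With groups ordered by mean level, the libraries of neighbouring groups overlapped at most steps. The exceptions were Gfi1, whose knockout-labelled DMSO libraries lay above knockout-labelled bortezomib, which in turn lay above WT bortezomib, and Runx1, whose knockout-labelled bortezomib libraries lay above all other groups. Mecom in knockout-labelled DMSO also lay above its next group, WT DMSO, and Hlf in RFP single positive HSCs lay above its next group, the double negative HSCs.

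The first comparison, of bortezomib with DMSO in WT mice, addresses what proteasome inhibition does to HSCs. Hlf, Mecom, Meis1, Hoxa9 and Runx1 fell in bortezomib-treated WT HSCs, so that 5 of the 9 factors were called lower and 0 higher. In this comparison 15.5% of the genes tested were called in either direction (7.97% higher and 7.56% lower). The median log2 fold change of the factors was -0.52, beside -0.04 over all genes tested.

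Hlf, a PAR bZIP factor enriched in HSCs, had 176, 225 and 207 CPM in WT bortezomib, against 363, 376 and 381 CPM in WT DMSO. The groups did not overlap, and Hlf fell by 0.86 on the log2 scale (SE 0.18, edgeR adjusted p = 0.00825). Mecom, a zinc-finger factor required for HSC maintenance, had 81.6, 91.8 and 66.5 CPM in WT bortezomib, against 175, 169 and 129.5 CPM in WT DMSO. It too was lower in every bortezomib library and fell by 0.96 (SE 0.20, edgeR adjusted p = 0.00671).

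The HOX-TALE pair moved the same way. Meis1, a homeodomain cofactor of HOX proteins, had 358, 365 and 372 CPM in WT bortezomib, against 564, 657 and 518 CPM in WT DMSO, and fell by 0.64 (SE 0.15, edgeR adjusted p = 0.0123). Hoxa9, its homeodomain partner, had 57.6, 63.8 and 59.96 CPM in WT bortezomib, against 83.1, 84.3 and 98.0 CPM in WT DMSO, and fell by 0.52 (SE 0.16, edgeR adjusted p = 0.0332). Neither gene's groups overlapped.

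Among the factors that share enhancers in stem cells, Runx1 fell while Gata2 and Tal1 were not called. Runx1, the DNA-binding subunit of core binding factor, had 84.9, 76.0 and 82.4 CPM in WT bortezomib, against 142, 143 and 113 CPM in WT DMSO (log2 fold change -0.68 with SE 0.17, edgeR adjusted p = 0.0158). Gata2, a zinc-finger factor of stem and progenitor cells, had 276, 261 and 228 CPM in WT bortezomib, against 355, 354 and 322 CPM in WT DMSO. Its groups did not overlap, but it missed the threshold (log2 fold change -0.41 with SE 0.16, edgeR adjusted p = 0.104). Gata2 passed with limma voom (-0.39, adjusted p = 0.0103) and when only the groups compared were fitted (-0.43, edgeR adjusted p = 0.0409). Those fits called 6234 of 16149 and 2937 of 14735 genes. Tal1, the helix-loop-helix partner of the complex, had 32.0 to 38.2 CPM in WT bortezomib, overlapping 26.7 to 32.97 CPM in WT DMSO. The repressors Gfi1 (16.2 to 19.4 CPM in WT bortezomib, against 6.67 to 23.3 CPM in WT DMSO) and Gfi1b (46.4 to 72.8 against 58.9 to 98.9 CPM) overlapped between the groups. In all, 6 of the 9 factors had groups that did not overlap, where 37% of the genes tested did not.

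The side of the threshold on which 4 of these factors lay changed when single libraries were left out, while their fold changes stayed of like size. Without WT bortezomib 1, 1 of the 9 factors (Mecom) stayed past the threshold, and Hlf then had a log2 fold change of -0.77 and an edgeR adjusted p of 0.0548. Without WT DMSO 2, 2 were called, and without WT DMSO 1 or WT bortezomib 2, 3. The number of all genes called fell in the same fits, to 588 without WT bortezomib 1, 731 without WT DMSO 2, 983 without WT DMSO 1 and 1325 without WT bortezomib 2, against 2508 with every library. Meis1 lost its call without WT DMSO 2 (adjusted p = 0.0752) or WT bortezomib 1, and Runx1 without WT DMSO 1, WT DMSO 2 (adjusted p = 0.0779), WT bortezomib 1 or WT bortezomib 2 (log2 fold changes -0.63 to -0.72). Mecom was called in each of the 12 fits that left out a library, and Hoxa9 in 6 of them, the call ending when any 1 of the 6 WT libraries was left out (log2 fold changes -0.45 to -0.57, adjusted p up to 0.136). Offsets for transcript length and GC content ended the Hoxa9 call (adjusted p = 0.131) and moved the split of all genes called to 1848 higher and 954 lower, from 1287 and 1221. Over the 9 settings that kept to other methods or sets, log2 fold changes ran from -0.91 to -0.66 (Hlf) and -1.01 to -0.74 (Mecom). They ran from -0.74 to -0.42 for Meis1 and from -0.77 to -0.44 for Runx1. The libraries differed in more than the factors: the summed level of the 10 HSC markers was 1444 to 1824 CPM in WT bortezomib, against 2528 to 2799 CPM in WT DMSO. Kit, 1 of these markers and part of the sort, made up much of this difference (395 ± 68.1 CPM in WT bortezomib and 882 ± 165 CPM in WT DMSO). The 8 erythroid markers summed to 189 to 219 CPM in WT bortezomib, against 70.8 to 97.8 CPM in WT DMSO, most of it from Hbb-bt (164 ± 20.004 CPM in WT bortezomib and 55.6 ± 12.7 CPM in WT DMSO), while Hba-a1 was lower (0.47 ± 0.20 CPM in WT bortezomib and 2.49 ± 0.48 CPM in WT DMSO). Cd48, which the sort selects against, averaged 38.6 ± 12.3 CPM in WT bortezomib and 11.1 ± 1.10 CPM in WT DMSO (SD, n = 3 each). The 7 T and NK markers summed to 144 to 212 CPM in WT bortezomib, against 85.8 to 92.1 CPM in WT DMSO, a difference that lay in Nkg7 (161 ± 30.6 CPM in WT bortezomib and 73.0 ± 2.62 CPM in WT DMSO), with Klrb1c and Cd4 near level and Cd3e, Cd3g, Cd8a and Gzma at 0 in both groups. The part of these differences in the fall of the factors was not tested, and in bulk RNA fewer cells of a type and less RNA per cell cannot be told apart.

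**Figure D2:**
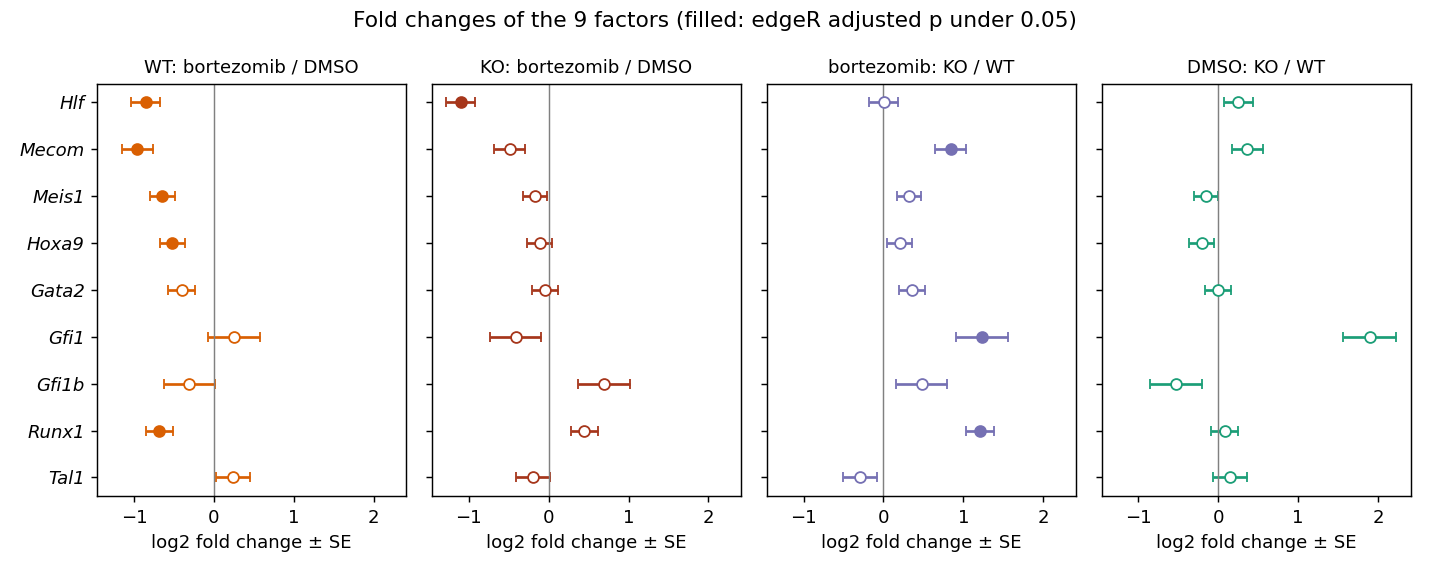
Log2 fold changes (points, with bars for the SE) of the 9 factors in the 4 pairwise comparisons of the treatment experiment, from the edgeR fit over 12 libraries, with filled points at an adjusted p under 0.05. Hlf lies near -1 in both bortezomib comparisons, whereas Runx1 lies at -0.68 in WT and 0.45 in knockout-labelled HSCs, and Gfi1 lies above 1 in both genotype comparisons.

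In knockout-labelled HSCs, bortezomib was compared with DMSO to ask for the same response in cells labelled as lacking Atg5, a gene needed to attach LC3 to membranes. Hlf fell, and it was the only 1 of the 9 factors that was called, where 3.63% of the genes tested were called (2.02% higher and 1.61% lower). Hlf had 184, 208 and 219 CPM in knockout-labelled bortezomib, against 344, 401 and 574 CPM in knockout-labelled DMSO. Every bortezomib library was below every DMSO library, and Hlf fell by 1.10 on the log2 scale (SE 0.18, edgeR adjusted p = 0.00351). The call held in each of the 12 fits without a library (adjusted p 0.00340 to 0.0195). The effect of bortezomib on Hlf did not differ detectably between genotypes (interaction -0.24, SE 0.26, edgeR adjusted p = 0.603). The 8 erythroid markers summed to 55.4 to 79.7 CPM in knockout-labelled bortezomib, against 94.3 to 218 CPM in knockout-labelled DMSO, a difference that lay in Hbb-bt (22.0 ± 21.4 CPM with bortezomib and 130.007 ± 60.5 CPM with DMSO), and its part in the fall of Hlf was not tested.

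The other factors lowered in WT HSCs did not reach the threshold here. Mecom had 136, 182 and 112 CPM in knockout-labelled bortezomib, against 198, 208 and 199 CPM in knockout-labelled DMSO, without overlap (log2 fold change -0.49 with SE 0.19, edgeR adjusted p = 0.203). Meis1 (408 to 504 against 471 to 561 CPM) and Hoxa9 (63.3 to 77.1 against 70.5 to 84.7 CPM) overlapped between bortezomib and DMSO, as did Gata2 (272 to 410.3 against 336 to 348 CPM) and Tal1 (25.7 to 30.6 against 27.1 to 44.4 CPM). Runx1 pointed the other way, at 205, 190.4 and 168 CPM in knockout-labelled bortezomib, against 149.8, 110.1 and 157 CPM in knockout-labelled DMSO. Its groups did not overlap, and it missed the threshold (log2 fold change 0.45 with SE 0.17, edgeR adjusted p = 0.178). It passed with limma voom (0.60, adjusted p = 0.0165) and with WT bortezomib 3, WT DMSO 3 and knockout-labelled bortezomib 3 left out together (0.53, adjusted p = 0.0388). Those fits called 1577 of 16149 and 1902 of 16410 genes. Gfi1 had 48.9, 47.0 and 32.4 CPM in knockout-labelled bortezomib, against 50.5, 60.9 and 60.9 CPM in knockout-labelled DMSO, also without overlap and not called (log2 fold change -0.41 with SE 0.32, edgeR adjusted p = 0.590). Gfi1b had 136, 47.5 and 59.7 CPM in knockout-labelled bortezomib, against 49.5, 42.2 and 59.4 CPM in knockout-labelled DMSO. The library at 136 CPM was the knockout-labelled bortezomib library whose Xist share was 100%. The log2 fold change of Gfi1b was 0.69 (SE 0.33, edgeR adjusted p = 0.298) and ran from 0.10 to 0.96 when single libraries were left out. In all, 4 of the 9 factors had groups that did not overlap, where 20.4% of genes did not.

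The interaction of genotype and bortezomib tests whether the bortezomib effect differed between knockout-labelled and WT HSCs. It was called for Runx1 alone among the 9 factors, at 1.13 on the log2 scale (SE 0.24, edgeR adjusted p = 0.0136), a positive value meaning a higher effect in knockout-labelled HSCs. Of all genes tested, 9.05% were called for the interaction, 4.35% with a positive and 4.71% with a negative sign (702 positive and 760 negative, or 706 and 1364 with length and GC offsets). The Runx1 call held in each of the 12 fits without a library (adjusted p 0.00346 to 0.0487), and ended with the Xist share as a covariate (0.97, adjusted p = 0.0720). Gfi1b (1.00, SE 0.46, edgeR adjusted p = 0.181) and Meis1 (0.48, SE 0.21, edgeR adjusted p = 0.171) had an unadjusted p under 0.05 and missed the threshold. Gfi1b passed with limma voom (1.25, adjusted p = 0.0233) and without a filter on low counts (1.02, adjusted p = 0.0115), and Meis1 with limma voom (0.68, adjusted p = 0.00444) and with library 3 of WT bortezomib, WT DMSO and knockout-labelled bortezomib left out together (0.60, adjusted p = 0.0405). Gata2 (0.36, SE 0.23, edgeR adjusted p = 0.354) passed only with limma voom (0.50, adjusted p = 0.0399). For the interaction, limma voom called 4862 of 16149 genes, against 1462 with edgeR, and the fit without a filter called 2319 of 24983. Cbfb, which encodes the partner subunit that lets RUNX1 bind DNA stably, had the opposite interaction (-0.83, SE 0.21, edgeR adjusted p = 0.0274). Cbfb averaged 206 ± 19.2 CPM in knockout-labelled bortezomib and 281 ± 45.2 CPM in knockout-labelled DMSO, and 345 ± 12.7 CPM in WT bortezomib and 269 ± 2.76 CPM in WT DMSO (SD, n = 3 each). Its interaction was called in 4 of the 12 fits that left out a library (adjusted p up to 0.0916) and ended with the Xist covariate.

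Knockout-labelled and WT HSCs were also compared directly under bortezomib. Runx1, Gfi1 and Mecom rose in knockout-labelled HSCs, so that 3 of the 9 factors were called higher and 0 lower. The background was wide in this comparison, with 32.4% of the genes tested called and 17.2% called higher, so that a count of 3 of 9 is near it. With length and GC offsets the split of all calls was 1938 higher and 2980 lower, instead of 2770 and 2464.

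Runx1 had 205, 190.4 and 168 CPM in knockout-labelled bortezomib, against 84.9, 76.0 and 82.4 CPM in WT bortezomib, and rose by 1.21 on the log2 scale (SE 0.17, edgeR adjusted p = 0.000221). The lowest knockout-labelled library was above the highest WT library. Gfi1 had 48.9, 47.0 and 32.4 CPM in knockout-labelled bortezomib, against 18.7, 19.4 and 16.2 CPM in WT bortezomib, and rose by 1.24 (SE 0.33, edgeR adjusted p = 0.00896). Mecom had 136, 182 and 112 CPM in knockout-labelled bortezomib, against 81.6, 91.8 and 66.5 CPM in WT bortezomib, and rose by 0.84 (SE 0.20, edgeR adjusted p = 0.00417). These 3 calls held in each of the 12 fits without a library and under each of the 9 other settings, with adjusted p up to 0.0349. Under the other settings the log2 fold change ran from 0.49 to 0.85 for Mecom, 0.84 to 1.28 for Runx1 and 1.03 to 1.33 for Gfi1.

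Hlf showed no detectable difference in this comparison, with 184, 208 and 219 CPM in knockout-labelled bortezomib, against 176, 225 and 207 CPM in WT bortezomib (log2 fold change 0.00 with SE 0.18, edgeR adjusted p = 0.990). Meis1 had 504, 460.1 and 408 CPM in knockout-labelled bortezomib, against 358, 365 and 372 CPM in WT bortezomib, without overlap, and missed the threshold (log2 fold change 0.33 with SE 0.15, edgeR adjusted p = 0.113). Its direction turned with length and GC offsets (-0.08, edgeR adjusted p = 0.725), whereas limma voom called it higher (0.41, adjusted p = 0.00939). Gata2 at 410.3, 301 and 272 CPM, against 276, 261 and 228 CPM in WT bortezomib, overlapped (log2 fold change 0.36 with SE 0.16, edgeR adjusted p = 0.104), as did Hoxa9 and Gfi1b. Gata2 was called higher with limma voom (0.46, adjusted p = 0.00663) and without knockout-labelled bortezomib 3 (0.46, edgeR adjusted p = 0.0353). Those fits called 7428 of 16149 and 6000 of 16882 genes. Tal1, at 25.7 to 30.6 CPM in knockout-labelled bortezomib against 32.0 to 38.2 CPM in WT bortezomib, did not overlap and was called lower only with length and GC offsets (-0.61, adjusted p = 0.0405). In all, 5 of the 9 factors had groups that did not overlap, where 44.2% of genes did not. The 10 HSC markers summed to 2167 to 2631 CPM in knockout-labelled bortezomib, against 1444 to 1824 CPM in WT bortezomib, and the 8 erythroid markers to 55.4 to 79.7 against 189 to 219 CPM. The erythroid difference lay in Hbb-bt (22.0 ± 21.4 CPM in knockout-labelled and 164 ± 20.004 CPM in WT bortezomib), while the means of Hba-a1, Hbb-bs, Alas2, Car1 and Klf1 were higher in knockout-labelled bortezomib. The part of these differences was not tested.

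Without bortezomib, knockout-labelled HSCs were compared with WT HSCs to ask what differed between the genotype labels in the absence of the drug. The Xist share differed along with the label, so this comparison does not isolate the genotype. None of the 9 factors was called, where 0% of the 16149 genes tested were called by edgeR. At an unadjusted p under 0.05 there were 1454 genes, 1 of them a member, and DESeq2 called 152 genes and limma voom 114, Gfi1 among them in both. Gfi1 ranked 6 of all genes by p.

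Gfi1 had 50.5, 60.9 and 60.9 CPM in knockout-labelled DMSO, against 16.6, 23.3 and 6.67 CPM in WT DMSO. The groups did not overlap, and the log2 fold change was 1.90 (SE 0.33, edgeR adjusted p = 0.0664). It passed the threshold under 6 of 9 other settings, including DESeq2 (adjusted p = 2.87e-05), limma voom (0.00339) and length and GC offsets (0.0220), and in 1 of the 12 fits without a library, that without knockout-labelled bortezomib 3 (0.0317). Adjusted p over the fits without a library ran from 0.0317 to 0.272. As a description of all libraries, the 6 knockout-labelled ones held 32.4 to 60.9 CPM of Gfi1 and the other 15 held 6.57 to 23.3 CPM. Xist shares differed between these DMSO groups without overlap, and with the share as a covariate the log2 fold change of Gfi1 was 2.34, without a call. The part of this difference in the Gfi1 level was not otherwise tested. The 9 neutrophil markers, a lineage that uses GFI1, summed to 264 to 427 CPM in knockout-labelled DMSO and 196 to 290.1 CPM in WT DMSO, with Ctsg at 0 in all libraries. Most of that sum was Prtn3 (316 ± 84.9 CPM in knockout-labelled DMSO and 225 ± 38.8 CPM in WT DMSO), and the means of S100a8, S100a9, Ngp, Mpo and Camp were lower in knockout-labelled DMSO. The 7 monocyte and macrophage markers summed to 464 to 584 CPM in knockout-labelled DMSO, against 644 to 905 CPM in WT DMSO. The part of the monocyte, macrophage and neutrophil markers in the Gfi1 level was not tested.

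Mecom was the other factor without overlap in this comparison, at 198, 208 and 199 CPM in knockout-labelled DMSO, against 175, 169 and 129.5 CPM in WT DMSO, and was not called (edgeR adjusted p = 0.594). Gata2 was nearly level, at 348, 336 and 338 CPM in knockout-labelled DMSO, against 355, 354 and 322 CPM in WT DMSO. Gata2 and the other 6 factors overlapped between the groups, with log2 fold changes from -0.52 (Gfi1b) to 0.25 (Hlf). Overlap was absent for 2 of the 9 factors, where 18.1% of genes did not overlap.

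**Figure D3:**
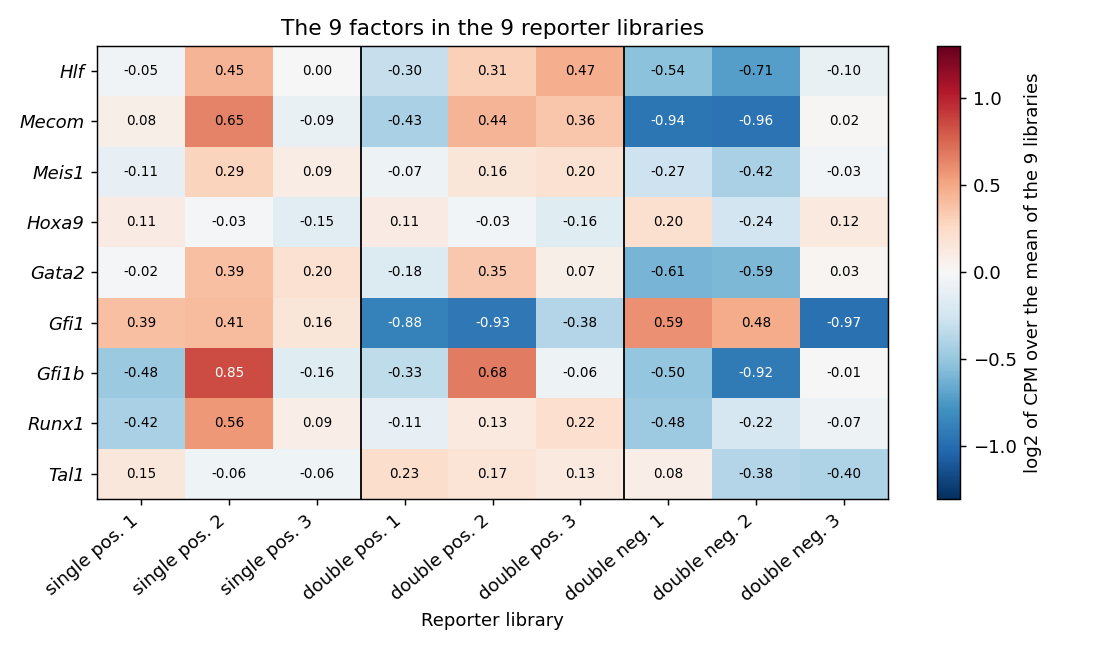
Level of each factor in each reporter library as the log2 ratio of its CPM to its mean over the 9 libraries, with RFP single positive, RFP GFP double positive and double negative libraries from left to right. The double negative libraries 1 and 2 hold the lowest values of Mecom, Hlf, Meis1, Gata2 and Gfi1b. Runx1 is lowest in double negative library 1, followed by RFP single positive library 1. Gfi1 is lowest in the double positive libraries and in double negative library 3.

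In the reporter experiment, the sorted HSC fractions were compared with each other to ask whether the factors follow the autophagy reporter. No factor was called in any of the 3 comparisons by edgeR, DESeq2 or limma voom, where edgeR called 0% of 15375 genes between RFP single positive and double positive, 0% between RFP single positive and double negative, and 0.0065% (1 gene) between double positive and double negative HSCs. At an unadjusted p under 0.05 there were 209, 1160 and 1315 genes in these comparisons, and 1, 3 and 3 of the 9 factors. Among the 3 fractions, Hlf, Mecom, Gata2, Meis1, Gfi1b, Runx1 and Tal1 had their lowest mean in double negative HSCs, and Hoxa9 and Gfi1 did not. None of these differences was called, and the share of all genes lowest in that fraction was not tested.

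Hlf had 314, 443 and 326 CPM in RFP single positive, 264, 404 and 450.3 CPM in double positive, and 224, 199 and 305 CPM in double negative HSCs. Its single positive libraries lay above the double negative ones (log2 fold change 0.59 with SE 0.24, edgeR adjusted p = 0.651), and the double positive ones overlapped with them (0.63, SE 0.24, edgeR adjusted p = 0.555). Mecom had 121, 180.3 and 108 CPM in single positive, 85.5, 156 and 148 CPM in double positive, and 59.9, 59.2 and 116 CPM in double negative HSCs. Double negative library 3 overlapped with both other groups, and Mecom missed the threshold against each (0.81, SE 0.31, edgeR adjusted p = 0.651, and 0.74, SE 0.31, edgeR adjusted p = 0.565). Gata2 had 325, 433 and 379 CPM in single positive, 292, 419 and 346 CPM in double positive, and 217, 219.6 and 336 CPM in double negative HSCs, with the same library high among the double negative ones (single positive against double negative 0.57, SE 0.22, edgeR adjusted p = 0.651).

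Of the other factors, Meis1 had 439 to 578 CPM in single positive, 452 to 544 CPM in double positive and 354 to 462 CPM in double negative HSCs, and Hoxa9 was nearly level at means of 70.3 ± 6.33, 70.0 ± 6.43 and 73.2 ± 11.6 CPM (SD, n = 3 each). Runx1 (75.5 to 149, 93.4 to 117 and 72.6 to 96.3 CPM) and Gfi1b (56.9 to 144, 63.4 to 127 and 42.1 to 79.1 CPM) overlapped across the 3 fractions. Tal1 was 48.3 to 51.6 CPM in double positive, above 33.4 to 46.8 CPM in double negative HSCs, without being called (edgeR adjusted p = 0.629).

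Gfi1 followed another order than Hlf and Mecom. It had 16.9, 17.2 and 14.4 CPM in RFP single positive and 7.03, 6.79 and 9.89 CPM in double positive HSCs, which did not overlap, and 19.4, 18.0 and 6.57 CPM in double negative HSCs. The log2 fold change was 1.03 for single positive against double positive (SE 0.40, edgeR adjusted p = 1.000) and -0.87 for double positive against double negative HSCs (SE 0.40, edgeR adjusted p = 0.579). Libraries of the groups did not overlap for 1 of the 9 factors in each comparison (Gfi1, Hlf and Tal1), where 7.33%, 13.2% and 11.2% of genes did not overlap.

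Single libraries held many of the extremes. RFP single positive 2 held the highest level of 5 of the 9 factors among the reporter libraries, double negative 2 the lowest of 5, and double negative 1 the lowest of 2 others, Gata2 and Runx1. The libraries numbered 2 had Xist shares of 88.1% to 99.9% and the rest at most 10.2%, and Gfi1b was at 144 CPM in single positive 2 and 127 CPM in double positive 2, but at 42.1 CPM in double negative 2. The 10 HSC markers summed to 2470 to 2668 CPM in single positive, 2247 to 2941 CPM in double positive and 1784 to 2630 CPM in double negative HSCs. The part of Xist and of the HSC markers in the levels was not tested.

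**Figure D4:**
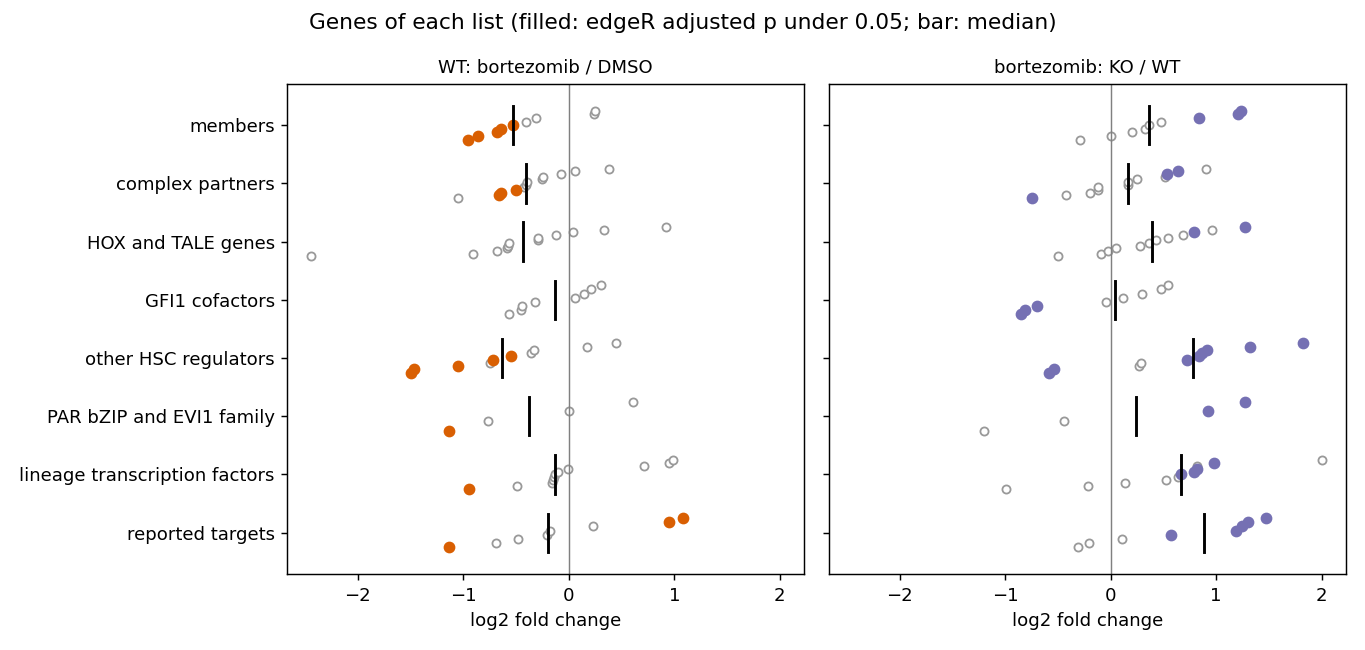
Log2 fold changes of the 9 factors (members) and of 7 lists of related genes in WT bortezomib against WT DMSO (left) and in knockout-labelled bortezomib against WT bortezomib (right), with filled points at an edgeR adjusted p under 0.05 and a bar at each list's median. In the list of other HSC regulators, 5 of 10 genes were lower on the left, and 6 of 10 were higher and 2 lower on the right.

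Genes that work with the 9 factors were read from the same fits. Of 12 partners of RUNX1, TAL1 and GATA2, 3 fell and 0 rose in WT bortezomib against WT DMSO (median -0.40), namely Ssbp2, Tcf12 and Lmo2, where 7.56% of all genes tested were called lower and 7.97% higher. Ssbp2 and Tcf12 were each called in 8 of 12 fits without a library (edgeR adjusted p up to 0.126). Both calls ended with length and GC offsets and with the Xist covariate. Lmo2, the bridging protein of the TAL1 and GATA2 complex, had 769 to 902 CPM in WT bortezomib, against 1073 to 1273 CPM in WT DMSO (log2 fold change -0.50 with SE 0.16, edgeR adjusted p = 0.0453, called in 4 of 12 fits without a library, up to adjusted p = 0.173). In knockout-labelled HSCs Lmo2 had 549 to 733 CPM with bortezomib, against 991 to 1273 CPM with DMSO, and was the only 1 of the 12 that fell (-0.85, SE 0.16, edgeR adjusted p = 0.00819). That call held in each of the 12 fits and ended when only the 6 knockout-labelled libraries were fitted. In knockout-labelled against WT bortezomib, 2 partners rose, Tcf12 (called in 8 of the 12 fits) and Ssbp2 (7 of 12, up to adjusted p = 0.166), and 1 fell, Cbfb (-0.75, SE 0.15, edgeR adjusted p = 0.00169, called in each of the 12 fits). These 3 of 12 lie below the 32.4% of all genes called there, and the calls of Tcf12 and Ssbp2 also ended with length and GC offsets.

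Of 12 tested relatives and cofactors of HOXA9 and MEIS1, 0 were called in either bortezomib comparison (medians -0.43 in WT and -0.33 in knockout-labelled HSCs). In these comparisons 15.5% (WT) and 3.63% (knockout-labelled) of all genes tested were called. In knockout-labelled against WT bortezomib 2 of the 12 rose, near the 17.2% of all genes called higher there. Hoxb5 rose by 0.79 (edgeR adjusted p = 0.0405), a call that held in 6 of 12 fits without a library (up to adjusted p = 0.182).

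Of 8 corepressors and cofactors of GFI1 and GFI1B, 3 fell and 0 rose in knockout-labelled against WT bortezomib, where Gfi1 itself rose. Hdac1, a histone deacetylase, averaged 103 ± 43.4 CPM in knockout-labelled bortezomib and 180.0 ± 3.01 CPM in WT bortezomib (SD, n = 3 each, log2 fold change -0.81 with SE 0.23, edgeR adjusted p = 0.0152). Hdac2 fell by 0.70 (edgeR adjusted p = 0.00941) and Rcor2, a CoREST protein, by 0.85 (edgeR adjusted p = 0.0101). The Rcor2 call ended without knockout-labelled bortezomib 2 (adjusted p = 0.0503), and those of Hdac1 and Hdac2 held in each fit. Kdm1a, which encodes LSD1, was not called in any of the 8 comparisons, and 15.3% of all genes tested were called lower between the genotypes under bortezomib.

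Of 10 other nuclear regulators of HSCs, 5 fell and 0 rose in WT bortezomib against WT DMSO (median -0.63, with 7.56% of all genes called lower and 7.97% higher), and 0 were called in knockout-labelled bortezomib against DMSO (median -0.29). Nkx2-3, a homeodomain factor, averaged 46.0 ± 9.57 CPM in WT bortezomib and 96.7 ± 11.05 CPM in WT DMSO (SD, n = 3 each), and fell by 1.05 (SE 0.18, edgeR adjusted p = 0.00361). Mllt3, a chromatin reader that maintains HSCs, fell by 1.47 (SE 0.26, edgeR adjusted p = 0.00412). Zbtb20, Tcf4 and Hhex also fell, with calls that ended in at least 1 of the 12 fits without a library (adjusted p up to 0.107). In knockout-labelled against WT bortezomib, 6 of the 10 rose and 2, Bmi1 (called in 9 of the 12 fits) and Tcf15 (8 of 12, up to adjusted p = 0.133), fell (median 0.78, beside 0.08 over all genes, of which 17.2% were called higher and 15.3% lower). Length and GC offsets ended the calls of Tcf4, Mllt3, Ikzf2 and Tcf15 there. The interaction was called for Nkx2-3 (1.303, SE 0.25, edgeR adjusted p = 0.00915), Zbtb20 and Hhex, all positive as for Runx1. It was called with a positive sign for 4.35% of all genes tested and with a negative sign for 4.71%. The Nkx2-3 call held in each of the 12 fits, and those of Zbtb20 and Hhex in 3 of 12 each (adjusted p up to 0.119). The Zbtb20 and Hhex calls also ended with the Xist covariate.

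The genes whose level followed each factor most closely over the 21 libraries were found by Pearson correlation of log2 CPM among 9974 genes, as a measure of likeness between libraries that share groups. Mecom was closest to Khnyn (0.95) and Mast4 (0.93), Runx1 to Etfdh and Tcf7l1 (both 0.92), Gata2 to Fads1 (0.92) and Pear1 (0.90), and Meis1 to Agtrap (0.92) and Add1 (0.91). Hlf was closest to Nfia and Il16 (0.88 and 0.87), and Gfi1 to Dido1 and Rbm27 (both 0.86). The closest genes were Cd200 for Hoxa9 (0.82), Lancl1 for Tal1 (0.85) and Col1a2 for Gfi1b (0.80). Over the 12 treatment libraries alone these values were 0.92 for Hoxa9, 0.58 for Tal1 and 0.77 for Gfi1b. Tal1 group means were 38.0 to 49.9 CPM in the reporter and 28.6 to 34.9 CPM in the treatment experiment. The part of this difference in the likeness was not tested.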

How the data were processed

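The authors deposited raw read counts per gene for 21 libraries. Per the labels' protocols, RNA was prepared with the RNeasy Plus Micro kit and SMART-seq2. Per the submitters' processing notes, Bowtie 1.0.0, STAR 2.6.1 and HTSeq 0.7.1 were used, and builds GRCm38.p4 and GRCh38 are named without a role. The sources used here give neither annotation release nor strand setting.

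The analysis ran edgeR 4.0.16 under R 4.3.3 on these counts: filterByExpr (16149 genes in the treatment and 15375 in the reporter experiment), TMM scaling, and a quasi-likelihood fit per experiment with a mean per group. Calls required an adjusted p (Benjamini-Hochberg, all genes of a comparison) under 0.05. CPM levels use TMM over 21 libraries jointly, and likeness used a prior count of 2 and genes with a mean of at least 5 CPM. Groups came from the labels. Levels are means ± SD.

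The 9 factors, gene lists, marker lists and alternatives were chosen with earlier results of these data known. Named list genes were up to 4 called members with the smallest p per list and comparison, and for each factor the 2 genes of most like pattern. Hhex in WT HSCs, Bmi1, Tcf15, Ikzf2, Kdm1a and single markers, outside this rule, were named after their values were seen. Alternatives were relative log expression factors, DESeq2 1.42.0, limma 3.58.1 voom with quality weights, no filter, fits of the compared groups alone, a replicate block, length and GC offsets (99.6% of genes tested had both), the Xist share as covariate, leaving out 3 libraries together, and leaving out each library. The procedure was tested on simulated data. No duplicated libraries were found. The main fits did not pair libraries by replicate number. Some genes of the lists are not reported here by name. Promoters are from RefSeq. Figures used Python 3.11 and matplotlib 3.10.9.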

Additional observations from a re-analysis of the deposited data

Results flagged for a closer look

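Runx1 responded to bortezomib differently in the genotypes: the bortezomib effect in knockout-labelled HSCs minus that in WT HSCs was 1.13 on the log2 scale (SE 0.24, edgeR adjusted p = 0.0136, interaction term over 12 libraries). Runx1 was at 168 to 205 CPM in knockout-labelled bortezomib and 110.1 to 157 CPM in knockout-labelled DMSO, and at 76.0 to 84.9 CPM in WT bortezomib and 113 to 143 CPM in WT DMSO. All 3 knockout-labelled bortezomib libraries lay above their DMSO libraries and all 3 WT bortezomib libraries below theirs. Xist shares were 0 to 100% in knockout-labelled bortezomib and at most 0.987% in knockout-labelled DMSO, and with them as a covariate the adjusted p was 0.0720.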

How the results depend on the processing

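The number of factors called (5, 1, 0, 3 and 1 for bortezomib in WT, bortezomib in knockout-labelled HSCs, genotype in DMSO, genotype under bortezomib and the interaction) moved as follows. For genotype in DMSO it was 1 (Gfi1) with DESeq2, limma voom, no filter on low counts, the replicate block, length and GC offsets, or WT bortezomib 3, WT DMSO 3 and knockout-labelled bortezomib 3 left out together. For bortezomib in knockout-labelled HSCs it was 4 with limma voom, and 2 without a filter and without the 3 libraries. For genotype under bortezomib it was 5 with limma voom and 4 with length and GC offsets. For bortezomib in WT it was 6 with limma voom and with only the groups compared, and 4 without a filter, with length and GC offsets and without the 3 libraries. For the interaction it was 4 with limma voom, 2 without a filter and without the 3 libraries, and 0 with the Xist share as a covariate. The number of all genes called moved in the same fits. For the interaction it was 1462 of 16149 as reported, 4862 with limma voom and 276 with the Xist covariate. With limma voom it was also 6234 for bortezomib in WT, against 2508, and 7428 for genotype under bortezomib, against 5234. Without each library in turn it ran from 1 to 5 for bortezomib in WT, from 0 to 1 for genotype in DMSO and from 3 to 4 for genotype under bortezomib. The reporter counts stayed at 0 under every setting run. The fold change of Meis1 between genotypes under bortezomib reversed to -0.076 with length and GC offsets, under which the median of all genes there was -0.05 instead of 0.08. The causes were not tested.

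In no comparison did every same-numbered pair of libraries correlate above 0.1, and the main fits did not pair them. That cutoff does not show that pairing is absent. Each RFP single positive library correlated best with the double positive library of its own number (0.096, 0.049 and 0.066). The reporter libraries numbered 2 also had the highest Xist shares of their fractions (88.1% to 99.9%). The labels do not say whether libraries of a number shared a source. The replicate block changed the call of 1 factor, Gfi1 in DMSO (2.02, edgeR adjusted p = 0.0217), and moved the number of all genes called there from 0 to 23, and from 2508 to 3039 for bortezomib in WT.

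Genes called ranged, without each library in turn, over 588 to 3236 (bortezomib in WT), 182 to 1040 (bortezomib in knockout-labelled HSCs), 0 to 37 (genotype in DMSO), 3582 to 6000 (genotype under bortezomib) and 352 to 2820 (interaction). With limma voom they were 6234, 1577, 114, 7428 and 4862, and with DESeq2 3485, 1238, 152, 5933 and 2443. Without a filter they were 1085 (bortezomib in knockout-labelled HSCs), 189 (genotype in DMSO) and 2319 (interaction). With the Xist covariate they were 1629 (bortezomib in WT), 2 (genotype in DMSO) and 276 (interaction), and without the 3 libraries 3961, 1902, 40 and 4015 (all but genotype under bortezomib). Fitting only the groups compared gave 318 (bortezomib in knockout-labelled HSCs) and 23 (genotype in DMSO), and length and GC offsets 12 (genotype in DMSO). Of the related genes called, 3 of 13, 1 of 4, 13 of 27 and 1 of 4 held under every setting (bortezomib in WT, bortezomib in knockout-labelled HSCs, genotype under bortezomib, interaction).

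With 3 libraries a group, a missed threshold does not show equal levels.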

Other observations

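Paralogs, lineage factors and reported targets of the 9 factors gave further values. Of the PAR bZIP relatives of HLF, Tef rose in knockout-labelled against WT bortezomib (50.9 to 80.9 against 29.7 to 43.1 CPM, log2 fold change 0.92 with SE 0.20, edgeR adjusted p = 0.00276), while Dbp fell in knockout-labelled bortezomib against DMSO (4.53 to 8.56 against 13.2 to 24.0 CPM, -1.32, SE 0.33, edgeR adjusted p = 0.0371). The Tef call held in each of the 12 fits without a library and that of Dbp in 4 (adjusted p up to 0.211). Prdm16, the paralog of Mecom, fell in WT bortezomib against DMSO (9.50 to 15.9 against 24.3 to 32.5 CPM, -1.14, SE 0.30, edgeR adjusted p = 0.0207, called in 9 of 12 fits, up to adjusted p = 0.107) and rose in knockout-labelled against WT bortezomib (19.4 to 38.5 against 9.50 to 15.9 CPM, 1.27, SE 0.30, edgeR adjusted p = 0.00507, lost with length and GC offsets).

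Of 11 tested factors of committed lineages, 1, Gata3, fell in WT bortezomib against DMSO (-0.94, edgeR adjusted p = 0.0123, lost without WT DMSO 2 or WT bortezomib 1, up to 0.0680), where 7.56% of all genes tested were called lower. In knockout-labelled bortezomib against DMSO 0 were called, where 3.63% of all genes were. In knockout-labelled against WT bortezomib 4 rose, where 17.2% of all genes were called higher. Among these 4, Spi1, which encodes the myeloid and lymphoid factor PU.1, had 202 to 252 CPM in knockout-labelled bortezomib, against 109 to 158 CPM in WT bortezomib (0.82, SE 0.16, edgeR adjusted p = 0.00146), and the call held in each of the 12 fits.

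Of 8 genes reported as targets of the factors, Cdkn1a and Id2 rose with bortezomib in both genotypes, the Id2 calls holding in 7 of 12 fits without a library in knockout-labelled and 8 of 12 in WT HSCs (adjusted p up to 0.105). Of all genes tested, 2.02% were called higher with bortezomib in knockout-labelled and 7.97% in WT HSCs. Cdkn1a, a cyclin-dependent kinase inhibitor, had 24.0 to 34.0 CPM in knockout-labelled bortezomib and 7.67 to 9.77 CPM in knockout-labelled DMSO (1.76, SE 0.32, edgeR adjusted p = 0.00651), and 11.5 to 15.03 CPM in WT bortezomib and 2.96 to 8.32 CPM in WT DMSO (1.08, SE 0.32, edgeR adjusted p = 0.0330). The WT call held in 8 of the 12 fits without a library (adjusted p up to 0.110) and ended with the Xist covariate. Kit, the receptor used in the sort, had 347 to 473 CPM in WT bortezomib, against 693 to 997 CPM in WT DMSO, and fell by 1.13 (SE 0.19, edgeR adjusted p = 0.00367), a call that held in each of the 12 fits.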
